A study of Mus musculus with 8 samples.

Results

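The leukocyte integrins described here are 9 subunit genes, Itgam, Itgax, Itgal, Itgb2, Itga4, Itgb1, Itga5, Itga6 and Itgb7, taken by symbol from a table of 38026 genes. All 9 were found and all 9 passed a filter of at least 1 TPM (a level corrected for transcript length and scaled to the library total) in at least 3 libraries, which 15262 genes of the table passed. The RNA came from cells that CD11b magnetic beads held back, in 2 groups. The first group was 5 libraries of tumor-associated microglia and macrophages (TAMs) from medulloblastoma, which grows in the cerebellum, of C57BL/6 mice aged 61, 62, 66, 68 and 90 days. The second was 3 libraries of normal microglia from the cerebral cortex of C57BL/6 mice aged 60 days. The labels do not give the genotype of the tumor mice or say whether any library pooled animals, so the p-values below measure the spread between these libraries. Tumor against normal tissue and cerebellar tumor against cortex are the same split and cannot be told apart.

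Integrins are cell-surface receptors made of 1 alpha and 1 beta chain, which bind matrix or counter-receptors outside the cell and hold on to actin through talin and kindlin inside it. The beta2 chain (Itgb2, CD18) occurs on leukocytes and pairs with the alpha chains M (Itgam, CD11b), X (Itgax, CD11c), L (Itgal, CD11a) and D (Itgad). The beta1 chain (Itgb1) occurs on most cells and pairs with, among others, the alpha chains 4 (Itga4), 5 (Itga5) and 6 (Itga6), while the beta7 chain (Itgb7) pairs with the alpha chain 4 and with the alpha chain E (Itgae). In the brain, CD11b together with CD18 forms complement receptor 3, a receptor that microglia are known to use in taking up complement-tagged material. CD11c is known from dendritic cells and from subsets of mouse microglia in development and around damage. The alpha chain 4 is known from monocytes and lymphocytes and, in mouse brain tumors, as a chain carried more by macrophages of blood origin than by microglia.

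The libraries held 12683 to 14242 genes at 1 TPM or more in TAMs and 14375 to 16619 in microglia. Since TPM holds no read totals, depth is not known here and counting intervals cannot be given. The defining markers of the labelled cells were present in both groups. The sum of 10 myeloid markers was 12900 to 20070 TPM in TAMs and 5011 to 6483 TPM in microglia, and that of 13 resting microglia markers was 3225 to 11272 TPM in TAMs and 20102 to 23526 TPM in microglia. TAM replicate 2, from the mouse aged 90 days, stood apart. It had the lowest sum of resting microglia markers (3225 TPM, against 8320 to 11272 TPM in the other TAM libraries), the highest of monocyte and border macrophage markers (1276 TPM, against 529 to 763 TPM) and the highest of neutrophil markers (665 TPM, against 247 to 377 TPM). In microglia the sum of monocyte and border macrophage markers was 644 to 899 TPM and that of neutrophil markers 434 to 481 TPM. Endothelial markers were lower in TAMs for 14 of 14 genes, where 56.4% of all genes were lower by the TPM test described below. The sums were 19.2 to 111 TPM in TAMs and 724 to 2316 TPM in microglia, so the cortex libraries carried more RNA of vessel cells, which also express beta1 integrins.

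Itgam and Itgax lie next to each other on chromosome 7 in the same orientation, Itgam at 128062640 to 128128160 and Itgax at 128129547 to 128150656 on mm10, 1387 bases apart. Their levels differed between the groups in opposite directions. The 250 bases before each RefSeq start (build GRCm38.p6, plus strand) are shown, 5′ to 3′. Any link of these sequences to the levels was not tested. Capitals mark matches to the letters GAGGAA and to TGANTCA, which share no overlap here. GAGGAA is 1 form of the site that the myeloid factor PU.1 binds (searched on both strands, TTCCTC on the other). TGANTCA is the AP-1 motif (the same letters on both strands). Other forms of the PU.1 site were not searched, so a window without GAGGAA may still hold them.
Itgam, chr7:128062390-128062639: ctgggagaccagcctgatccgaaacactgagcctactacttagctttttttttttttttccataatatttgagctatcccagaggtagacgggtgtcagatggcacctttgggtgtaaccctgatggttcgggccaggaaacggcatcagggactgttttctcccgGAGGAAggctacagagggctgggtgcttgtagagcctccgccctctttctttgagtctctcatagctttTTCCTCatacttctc
Itgax, chr7:128129300-128129549: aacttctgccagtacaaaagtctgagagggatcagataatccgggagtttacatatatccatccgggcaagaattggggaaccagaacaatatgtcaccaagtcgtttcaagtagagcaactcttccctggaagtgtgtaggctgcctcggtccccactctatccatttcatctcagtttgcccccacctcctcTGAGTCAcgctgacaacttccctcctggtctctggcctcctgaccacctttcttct
The Itgam window held 2 GAGGAA matches, which begin 84 and 15 bases before the start, and no TGANTCA. The Itgax window held 1 TGANTCA match, 56 bases before the start, and no GAGGAA. Of 32851 windows of this length before RefSeq starts, 23.25% held GAGGAA and 6.749% held TGANTCA. Of the other 4 members with a window, Itgb1 and Itga5 held 1 GAGGAA each (9 and 127 bases before the start) and Itga4 and Itgb7 neither motif. Itgal, Itgb2 and Itga6 were not among the windows used.

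The alpha chains of beta2 differed between the groups in opposite directions. Itgax and Itgal were several-fold higher in TAMs than in cortical microglia, Itgam was lower and the shared chain Itgb2 was moderately higher. Among beta1 and its partners, Itga5 was higher on both scales described below, though on TPM modestly and not in most fits without 1 library. Itgb1 and Itga6 were called lower on TPM only. Tested with limma on log2(TPM + 1) with Benjamini-Hochberg adjustment over all 15262 genes at 0.05, 4 members were higher (Itgax, Itgal, Itgb2, Itga5), 3 lower (Itgam, Itgb1, Itga6) and 2 did not pass (Itga4, Itgb7). Over all genes tested 8.22% were higher and 56.4% lower, and the median log2 fold change was -0.65, against 0.46 for the members. Because most genes were listed lower on TPM, the libraries were also put on a second scale, with each divided by the median over genes of its ratio to the mean library (rescaled TPM). On that scale the median of all genes was -0.04 and that of the members 1.09. There 6 members were higher, 1 lower (Itgam) and 2 did not pass (Itgb1, Itga6), where 24.6% of all genes were higher and 25.1% lower. With Benjamini-Hochberg adjustment of the p-values in the authors' deposited table, 6 members were also higher and 1 lower, where 17.6% of 27039 genes were higher and 16.0% lower. Those calls are of the same genes as on rescaled TPM and rest on the same libraries. On TPM there was no overlap of the groups for 5 members that were higher and 3 that were lower in TAMs (7.97% and 49.7% of all genes), and on rescaled TPM for 6 and 1 (24.1% and 24.6%). In bulk RNA, a change in the number of cells of a type and a change in RNA per cell cannot be told apart.

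**Figure D1:**
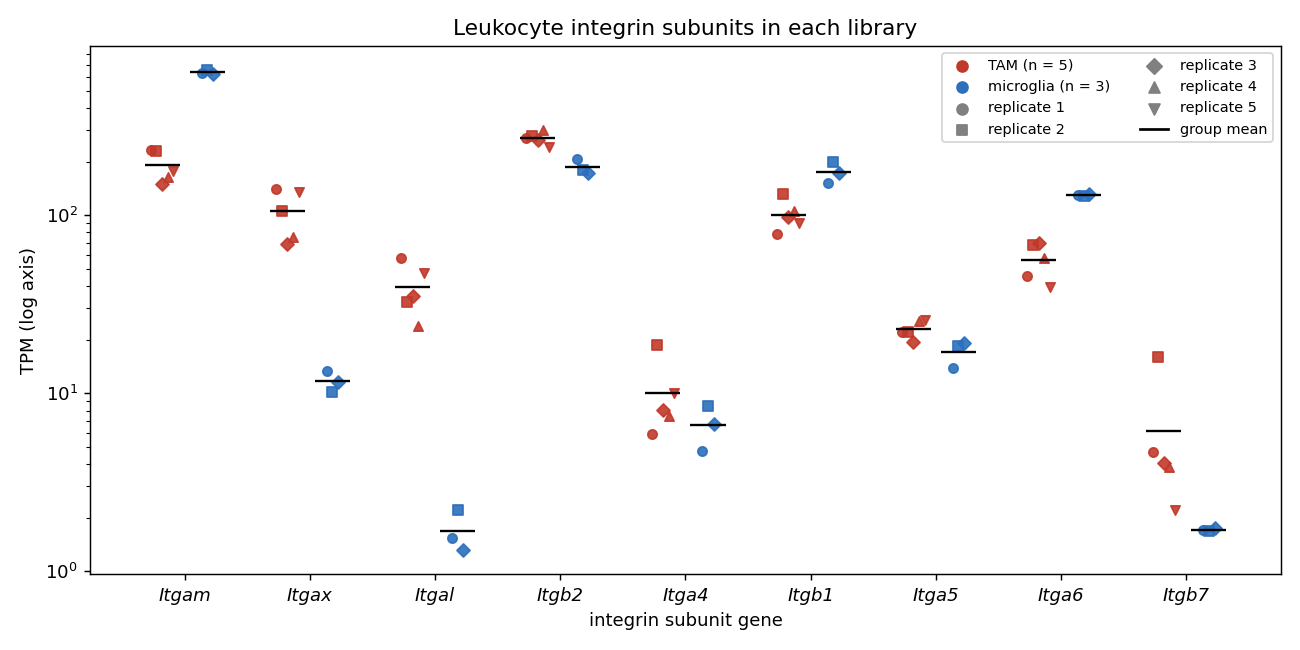
TPM of the 9 subunit genes in each library on a log axis, TAM libraries (red, n = 5) left of microglia libraries (blue, n = 3), with the marker shape giving the replicate number and the bar the group mean. Itgam lies at 150 to 233 TPM in TAMs and 625 to 655 TPM in microglia, while Itgal lies at 24.0 to 57.2 TPM in TAMs and 1.31 to 2.20 TPM in microglia.

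Itgam, whose protein CD11b was the capture antigen in both groups, had 233, 230, 150, 164 and 176 TPM in TAM replicates 1 to 5 and 629, 655 and 625 TPM in microglia replicates 1 to 3. Every TAM library lay below every microglia library, and the mean was 191 ± 38.5 TPM in TAMs (SD, n = 5) and 636 ± 16.1 TPM in microglia (SD, n = 3), a ratio of 0.300. On the log2 scale the difference was -1.75 (SE 0.16, adjusted p = 0.000112, limma) and on rescaled TPM -1.04 (SE 0.22, adjusted p = 0.00601), with groups that did not overlap on either scale. In the authors' deposited table it was -0.889. In level Itgam stood second among the 9 genes in TAMs and first in microglia, where Itgb2 was next and their ranges did not overlap.

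Itgax, the gene of the alpha chain CD11c, had 141, 106, 69.0, 75.6 and 135 TPM in TAM replicates 1 to 5 and 13.4, 10.2 and 11.6 TPM in microglia. The lowest TAM library was several times the highest microglia library, and the means were 105 ± 33.0 TPM in TAMs and 11.7 ± 1.61 TPM in microglia, a ratio of 8.98. Itgax thus had a log2 fold change of 3.01 (SE 0.25, adjusted p = 7.6e-05, limma), and on rescaled TPM 3.68 (adjusted p = 6.5e-05). Dendritic cells carry CD11c as well, and of their markers none of the 8 tested was higher in TAMs on TPM (4 lower) or on rescaled TPM (2 lower). By the p-values of the authors' deposited table, 3 of the 10 listed were higher (Clec9a, Ccr7 and Wdfy4) and 2 lower. Of all genes 8.22% were higher and 56.4% lower on TPM, 24.6% and 25.1% on rescaled TPM, and 17.6% and 16.0% by the deposited p-values. The part of dendritic cells in the level of Itgax was not tested. Clec9a was at 0.688 to 2.31 TPM in TAMs and 0.0853 to 0.739 TPM in microglia, Xcr1 at 0.146 to 2.26 TPM in TAMs and 0.270 to 0.534 TPM in microglia, and Flt3 at 1.31 to 4.91 TPM in TAMs and 1.98 to 2.38 TPM in microglia. The summed level of the 10 dendritic markers was 128 to 191 TPM in TAMs and 994 to 1077 TPM in microglia, of which Siglech, also a gene of microglia, gave 6.99 to 109 TPM in TAMs and 870 to 961 TPM in microglia.

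Itgal, the alpha chain of LFA-1, which binds the ICAM proteins, lies on chromosome 7 at 127296260 to 127335137. It had 57.2, 32.7, 35.3, 24.0 and 47.6 TPM in TAM replicates 1 to 5 and 1.55, 2.20 and 1.31 TPM in microglia. It was the lowest of the 9 genes in microglia and had the largest fold change among them, with means of 39.3 ± 13.1 TPM in TAMs and 1.69 ± 0.461 TPM in microglia, a ratio of 23.3. Its log2 fold change was 3.86 (SE 0.27, adjusted p = 3.9e-05, limma) and on rescaled TPM 4.38. LFA-1 is also carried by lymphocytes. The 12 T and NK cell markers summed to 31.8 to 109 TPM in TAMs and 15.1 to 22.6 TPM in microglia, mostly Cd4, which mouse macrophages can also carry. Of the 6 tested, Cd4 and Klrk1 were higher on TPM and on rescaled TPM, Lck was lower on both and Cd3d lower on TPM only. By the authors' deposited table, 3 of 12 were higher (Nkg7 in addition) and 1 lower. The shares of all genes higher and lower were 8.22% and 56.4% on TPM, 24.6% and 25.1% on rescaled TPM and 17.6% and 16.0% by the deposited p-values. The T cell receptor gene Trac was at most 0.314 TPM in TAMs and 0.483 TPM in microglia, and Cd3e at most 0.170 TPM in TAMs and 0.408 TPM in microglia. Among the TAM libraries Itgal was highest in replicate 1 and lowest in replicate 4, while the sum of monocyte and border macrophage markers was highest in replicate 2 and also lowest in replicate 4. The part of lymphocytes and monocytes in the level of Itgal was not tested.

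Itgb2, the chain that these alpha subunits share, lies on chromosome 10 at 77530252 to 77565708. Its level was 272, 279, 264, 299 and 241 TPM in TAM replicates 1 to 5 and 208, 180 and 173 TPM in microglia. The groups did not overlap, the spread within TAMs was the narrowest relative to its mean of the 9 genes, and the means were 271 ± 21.3 TPM in TAMs and 187 ± 18.6 TPM in microglia, a ratio of 1.45. The log2 fold change was 0.54 (SE 0.10, adjusted p = 0.00246, limma) and on rescaled TPM 1.25 (adjusted p = 0.00171). The calls of Itgam, Itgax, Itgal and Itgb2 held on TPM and on rescaled TPM without any 1 library.

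**Figure D2:**
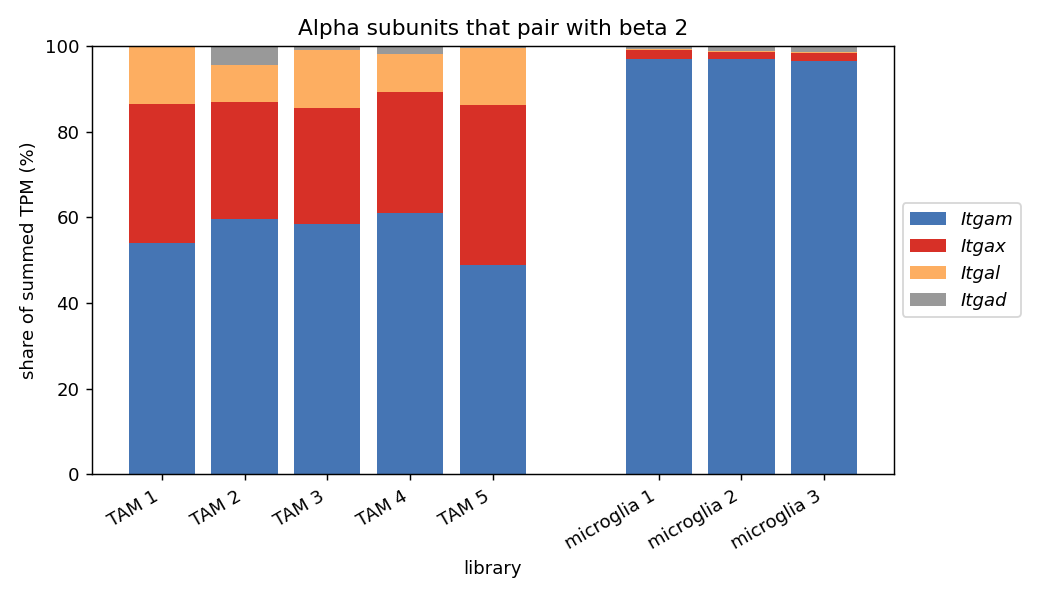
Share of each beta2-binding alpha chain in their summed TPM (percent, y axis) for each library, TAMs left of microglia. Itgam is 48.8% to 61.1% of the sum in TAM libraries and 96.6% to 97.0% in microglia libraries.

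Set against each other within a library, the 4 alpha chains of beta2 gave shares that do not depend on how a library is scaled. Itgam made up 56.4% ± 4.99 of their summed TPM in TAMs (SD, n = 5) and 96.9% ± 0.257 in microglia (SD, n = 3). Itgax made up 26.9% to 37.5% in TAMs and 1.51% to 2.07% in microglia, and Itgal 8.46% to 13.7% in TAMs and 0.203% to 0.326% in microglia. Itgad, the fourth alpha chain, was 0.299% to 4.55% in TAMs and 0.680% to 1.45% in microglia, highest in TAM replicate 2 (17.6 TPM, against 1.29 to 5.07 TPM in the other TAM libraries). The stacked shares of the libraries show 3 sizeable chains in every TAM library and 1 in every microglia library. The summed TPM of the 4 chains was 257 to 432 in TAMs and 647 to 675 in microglia. Among the 3 beta chains, Itgb2 was 65.3% to 76.6% in TAMs and 47.1% to 57.4% in microglia, Itgb1 22.0% to 31.0% in TAMs and 42.2% to 52.4% in microglia, and Itgb7 0.662% to 3.74% in TAMs and 0.442% to 0.507% in microglia.

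The balance of chains was compared as 7 log2 ratios of alpha to beta subunit within each library (0.1 TPM added to both), with exact two-sided permutation tests over the libraries. For 5 against 3 libraries the smallest p is 0.0357, and 5 of the 7 ratios reached it, with an adjusted p of 0.05 over the 7 ratios, equal to the threshold and not under it. Itgam to Itgb2 was 0.859, 0.825, 0.569, 0.549 and 0.732 in TAM replicates 1 to 5 and 3.03, 3.64 and 3.62 in microglia, so that Itgam was below its beta chain in 5 of 5 TAM libraries and above it in 3 of 3 microglia libraries. The log2 difference was -2.30. Itgax to Itgb2 was 0.253 to 0.562 in TAMs and 0.0574 to 0.0676 in microglia (log2 difference 2.57). Itgal to Itgb2 was 0.0804 to 0.211 in TAMs and 0.00792 to 0.0128 in microglia (log2 difference 3.89). These RNA ratios give no count of the paired proteins on a cell.

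**Figure D3:**
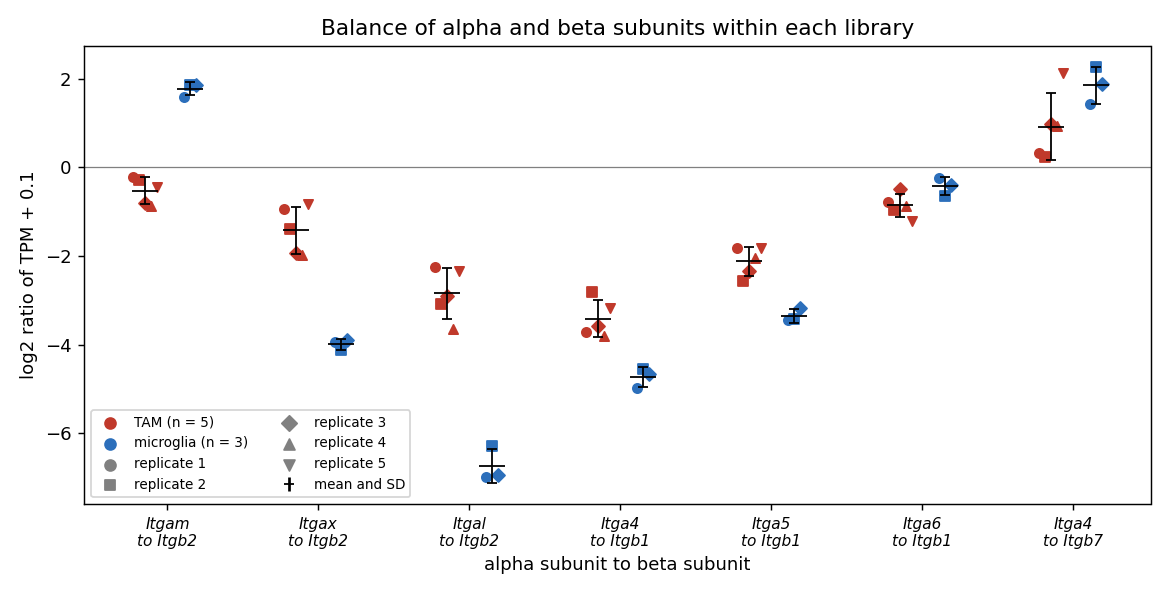
Log2 ratio of alpha to beta subunit (TPM + 0.1, y axis) in each library for 7 alpha-beta combinations, TAMs (red) left of microglia (blue), with the mean and SD of each group. In 5 combinations the groups do not overlap, while Itga6 to Itgb1 and Itga4 to Itgb7 overlap.

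Itgb1, the widely expressed beta chain, lies on chromosome 8 at 128685654 to 128733200. It had 78.2, 132, 97.7, 105 and 90.9 TPM in TAM replicates 1 to 5 and 153, 200 and 172 TPM in microglia. The TPM ranges did not overlap, with means of 101 ± 20.2 TPM in TAMs and 175 ± 23.8 TPM in microglia. The log2 fold change was -0.80 (SE 0.17, adjusted p = 0.00388, limma), close to the median of all genes on TPM. On rescaled TPM it was -0.09 (SE 0.19, adjusted p = 0.727) with ranges of 86.8 to 164 in TAMs and 121 to 130 in microglia, which overlap, and the authors' deposited table gave 0.0588. A direction for Itgb1 therefore depends on the scale.

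Itga6, the alpha chain of a laminin receptor, lies on chromosome 2 at 71745616 to 71858416. Its call, as that of Itgb1, depended on the scale, but its log2 fold change was below 0 on each scale. Its level was 45.7, 68.2, 69.9, 57.6 and 39.6 TPM in TAM replicates 1 to 5 and 130, 128 and 131 TPM in microglia. All TAM libraries were below all microglia libraries, with means of 56.2 ± 13.4 TPM in TAMs and 129 ± 1.74 TPM in microglia. The log2 fold change was -1.22 (SE 0.19, adjusted p = 0.000977, limma). On rescaled TPM the log2 fold change was -0.51 (adjusted p = 0.145, limma) with overlapping groups, and in the authors' deposited table it was -0.355. The ratio Itga6 to Itgb1 was 0.436 to 0.716 in TAMs and 0.639 to 0.850 in microglia (log2 difference -0.43, exact permutation p = 0.0714, adjusted p = 0.0833). Endothelial cells carry the alpha chain 6 as well, and their markers were higher in the cortex libraries (14 of 14 on TPM and on rescaled TPM, where 56.4% and 25.1% of all genes were lower in TAMs). Their part in the level of Itga6 was not tested. The 4 listed genes that overlap Itga6 had at most 0.980 TPM in any library.

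Itga5, the alpha chain of the classical fibronectin receptor, lies on chromosome 15 at 103344289 to 103366763. It had 22.0, 22.2, 19.3, 25.3 and 25.9 TPM in TAM replicates 1 to 5 and 13.9, 18.5 and 19.0 TPM in microglia. TAM replicate 3 lay just above the highest microglia library, and the means were 22.9 ± 2.70 TPM in TAMs and 17.1 ± 2.83 TPM in microglia, a ratio of 1.34. The log2 fold change of 0.40 (SE 0.15, adjusted p = 0.0388, limma) was not called with age as a covariate (adjusted p = 0.0766) or without any 1 library other than TAM replicate 3 (adjusted p = 0.0535 to 0.141). On rescaled TPM the log2 fold change was 1.09 (SE 0.11, adjusted p = 0.000265), and that call held without any 1 library. Itga5 to Itgb1 was 0.169 to 0.286 in TAMs and 0.0917 to 0.111 in microglia (log2 difference 1.23, exact permutation p = 0.0357).

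Itga4, the alpha chain of the receptor for VCAM-1, lies on chromosome 2 at 79255426 to 79333123. It had 5.88, 18.8, 8.10, 7.41 and 10.05 TPM in TAM replicates 1 to 5 and 4.73, 8.44 and 6.69 TPM in microglia. The groups overlapped and TAM replicate 2 was the highest, with means of 10.04 ± 5.10 TPM in TAMs and 6.62 ± 1.86 TPM in microglia. The log2 fold change was 0.46 (SE 0.34, adjusted p = 0.252, limma), and it was 0.23 without TAM replicate 2, 0.27 without microglia replicate 1 and 0.10 with age as a covariate. On rescaled TPM the groups did not overlap and Itga4 was higher (log2 fold change 1.09, adjusted p = 0.0204). That call held without any 1 TAM library, with 0.85 (adjusted p = 0.00201) without TAM replicate 2, and not without a microglia library (adjusted p = 0.0769, 0.0544 and 0.0737 without replicates 1, 2 and 3). Itga4 to Itgb1 was 0.0714 to 0.142 in TAMs and 0.0316 to 0.0427 in microglia (log2 difference 1.32, exact permutation p = 0.0357), and 1.17 without TAM replicate 2. Itga4 overlaps Cerkl, which had 1.29 to 3.31 TPM in TAMs and 0.925 to 2.18 TPM in microglia. The strandedness of the libraries is not given in the sources used here, so reads of the 2 genes may be mixed.

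Itgb7, the other beta chain of the alpha chain 4, lies on chromosome 15 at 102215995 to 102231935. It had 4.67, 16.0, 4.06, 3.85 and 2.21 TPM in TAM replicates 1 to 5 and 1.71, 1.69 and 1.75 TPM in microglia. All TAM libraries were above all microglia libraries, and replicate 2 was far above the other TAM libraries. The means were 6.16 ± 5.57 TPM in TAMs and 1.72 ± 0.0354 TPM in microglia, and the log2 fold change of 1.14 (SE 0.47) missed the threshold (adjusted p = 0.0604, limma). Without TAM replicate 2 it was 0.76 and passed (adjusted p = 0.0225), as it did without TAM replicate 5 (adjusted p = 0.0262). With age as a covariate it was 0.46 (adjusted p = 0.122). On rescaled TPM it was 1.63 and passed (adjusted p = 0.0315), though not without TAM replicate 1 or 3 or any 1 microglia library. Itga4 to Itgb7 was 1.17 to 4.39 in TAMs and 2.67 to 4.78 in microglia, which overlap (log2 difference -0.93, exact permutation p = 0.107, adjusted p = 0.107).

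**Figure D4:**
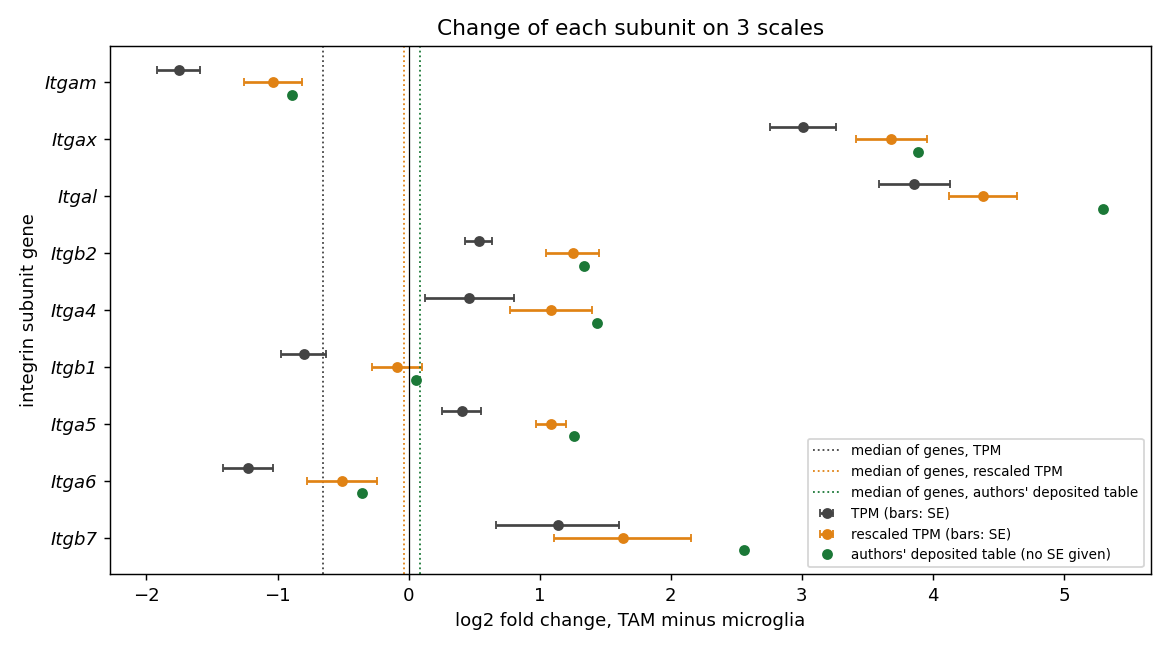
Log2 fold change of each subunit, TAM minus microglia, on TPM and rescaled TPM (bars are SE) and in the authors' deposited table (no SE given), with the median of all genes on each scale as a dotted line. Itgax and Itgal lie above 3 on every scale, Itgam lies below 0 on every scale and Itgb1 lies near the median of all genes on each.

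TAM replicate 2 thus had the highest Itga4, Itgb7 and Itgad, together with the highest sums of monocyte and border macrophage markers and of neutrophil markers. In this library Ccr2, a receptor of monocytes, was 48.3 TPM, against 2.62 to 17.0 TPM in the other TAM libraries. The neutrophil genes S100a9 and Retnlg were 245 TPM and 132 TPM, against 24.5 to 102 TPM and 6.67 to 16.2 TPM in the other TAM libraries, and Ly6g, which defines mouse neutrophils, was 0.540 TPM. Over the groups, 5 of 12 monocyte and border macrophage markers tested were higher and 3 lower on TPM, as were 4 and 2 of 8 neutrophil markers. Of all genes 8.22% were higher and 56.4% lower there. On rescaled TPM the counts were 5 and 2 for monocyte and border macrophage markers and 4 and 0 for neutrophil markers, where 24.6% of all genes were higher and 25.1% lower. Ly6c2 did not share the order of Ccr2, with 5.88 TPM in replicate 2 and 77.9 TPM in replicate 1. The part of these cells in the levels of Itga4 and Itgb7 was not tested, and the mouse of replicate 2 was also the oldest. Itgam (230 TPM) and Itgax (106 TPM) of this library lay within the range of the other TAM libraries.

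**Figure D5:**
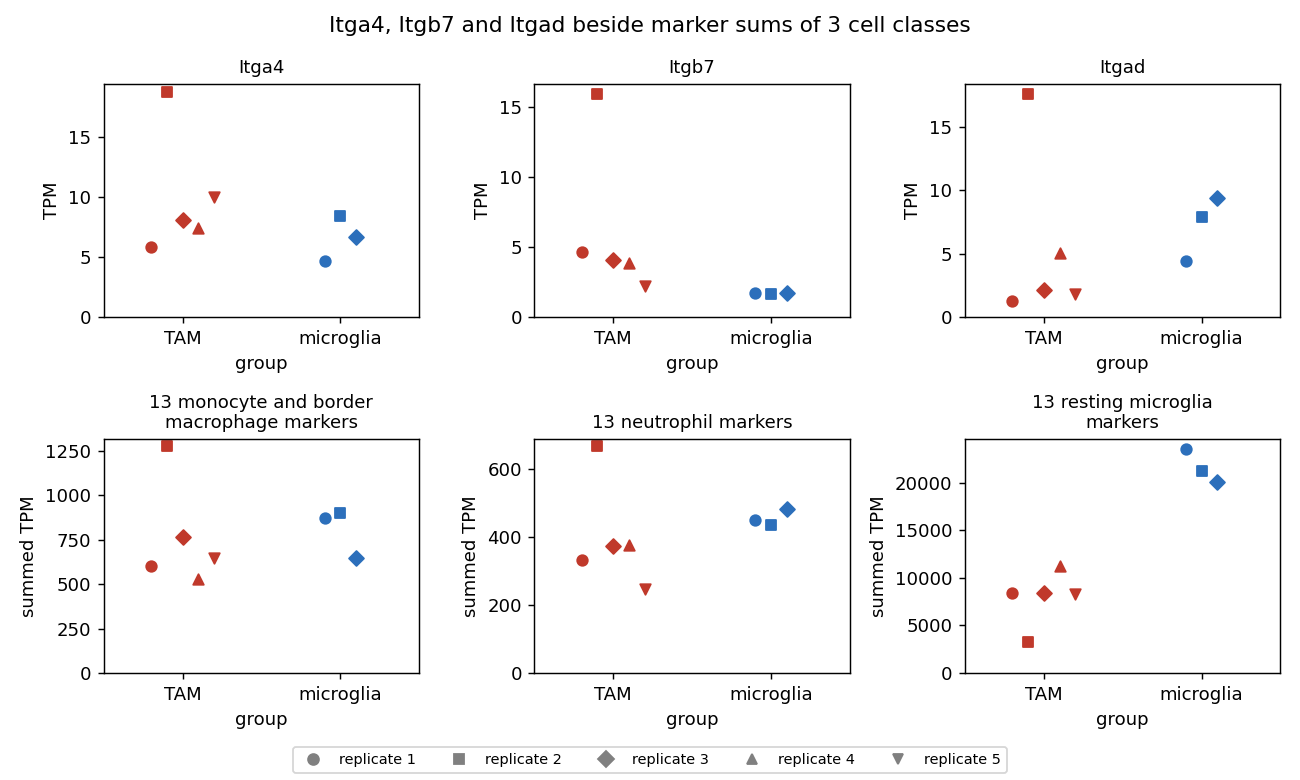
TPM of Itga4, Itgb7 and Itgad (upper row) and summed TPM of 3 marker lists (lower row) per library, TAMs left of microglia, with the marker shape giving the replicate number. TAM replicate 2 (square) is the highest library in all panels but that of resting microglia markers, where it is the lowest at 3225 TPM.

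By level, in TAMs, the order of mean TPM was Itgb2, Itgam, Itgax, Itgb1, Itga6, Itgal, Itga5, Itga4 and Itgb7. Among neighbours in that order the ranges of Itgax and Itgb1, of Itga6 and Itgal, of Itgal and Itga5, and of Itga4 and Itgb7 overlapped. In microglia the order was Itgam, Itgb2, Itgb1, Itga6, Itga5, Itgax, Itga4, Itgb7 and Itgal, where the ranges of Itgb2 and Itgb1 and of Itgb7 and Itgal overlapped and the other neighbours did not.

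Of 19 other integrin subunits 13 were tested, and on TPM none was higher and 8 were lower, with a median log2 fold change of -1.01, where 8.22% of all genes were higher and 56.4% lower. On rescaled TPM 5 were lower and none higher, with a median of -0.47, where 24.6% of all genes were higher and 25.1% lower. Without microglia replicate 1, 2 or 3 the number lower was 4, 3 or 3 on TPM and 2 each time on rescaled TPM. Over all genes it was 7985, 5581 or 5760 on TPM and 3046, 2262 or 2144 on rescaled TPM. The filter was applied anew in those fits, so genes under 1 TPM in every TAM library could no longer be tested. These smaller counts therefore cannot show how far the calls depend on single microglia libraries. The calls were led by Itga1, a chain that binds collagen, at 0.0969 to 0.511 TPM in TAMs and 4.22 to 17.9 TPM in microglia, with a log2 fold change of -3.17 (adjusted p = 0.000345, limma). Itgb4, which pairs with the alpha chain 6, was 0.0677 to 0.172 TPM in TAMs and 1.89 to 6.40 TPM in microglia. Itga1 and Itgb4 were under 1 TPM in every TAM library and passed the filter only through the microglia libraries. Their lower direction on TPM was thus fixed by the filter, and the counts of lower subunits include them. The laminin-binding chains Itga3 (log2 fold change -2.31) and Itga7 (-2.94) and the collagen-binding Itga10 (-1.63) were lower on both scales, and Itga2b (-0.86), the alpha chain known from platelets, on TPM only. Itgb5, the beta chain with the highest level outside the 9 members, had 259 to 630 TPM in TAMs and 671 to 825 TPM in microglia. Its log2 fold change was -0.68 (adjusted p = 0.0558, limma) and on rescaled TPM 0.04. Itgae, which pairs with Itgb7, had 1.29 to 2.88 TPM in TAMs and 1.75 to 2.78 TPM in microglia. Vessel, mural and glial markers were higher in the cortex libraries beside these genes, and their part was not tested.

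Of 25 ligands of integrins 18 were tested, and on TPM 3 were higher and 13 lower, and on rescaled TPM 3 and 12. The shares over all genes were those given above for the subunits. Without microglia replicate 2 or 3 the number of ligands lower on rescaled TPM was 8 or 7, and over all genes 2262 or 2144. In those fits, too, genes under 1 TPM in every TAM library could no longer be tested. The 3 that were higher were Spp1, C3 and Vcam1. Spp1, osteopontin, had 388 to 1941 TPM in TAMs and 16.3 to 23.9 TPM in microglia, which gave a log2 fold change of 5.06 (SE 0.48, adjusted p = 0.000126, limma). C3, whose fragment iC3b is bound by CD11b and CD11c with CD18, had 16.8 to 99.7 TPM in TAMs and 1.14 to 2.20 TPM in microglia, for a log2 fold change of 3.80. Vcam1, the counter-receptor of the alpha chain 4, had 51.8 to 277 TPM in TAMs and 27.1 to 40.1 TPM in microglia, for a log2 fold change of 1.65 (SE 0.48, adjusted p = 0.0158, limma). The junction proteins Jam3 (log2 fold change -3.47) and Jam2 (-3.88), vitronectin (Vtn, -5.70) and the laminin chain Lamb2 (-2.89) were lower. Icam1, a ligand of LFA-1, had 67.9 to 142 TPM in TAMs and 241 to 307 TPM in microglia. It was lower on TPM (-1.39, adjusted p = 0.00124, limma) and did not pass on rescaled TPM (-0.67, adjusted p = 0.0674). The fibrinogen genes Fga, Fgb and Fgg, whose product binds CD11b, were under 0.1 TPM in all libraries.

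Of 35 genes for activation of integrins and their link to actin and kinases, 33 were tested. On TPM 4 were higher and 15 lower (median log2 fold change -0.50), while on rescaled TPM 12 were higher and 7 lower (median 0.20). The shares over all genes moved in the same way, with 8.22% higher and 56.4% lower on TPM, and 24.6% higher and 25.1% lower on rescaled TPM. Without microglia replicate 2 or 3 the number higher on rescaled TPM was 7. The 4 genes higher on both scales act in signalling. Fgr, a Src-family kinase of myeloid cells, had 15.5 to 43.6 TPM in TAMs and 4.98 to 5.91 TPM in microglia, a log2 difference of 2.06 (SE 0.29, adjusted p = 0.000673, limma). The adaptors Tyrobp (0.94) and Fcer1g (0.85), which couple receptors to the kinase Syk, and the kinase Ptk2b (0.26) were also higher. Genes lower on both scales included Fermt2 (-3.76), the kindlin of non-blood cells, Tln2 (-1.56), a talin, and Parva (-2.69) and Lims1 (-1.13), which work with integrin-linked kinase. Fermt3, the kindlin of leukocytes, was 121 to 160 TPM in TAMs and 201 to 224 TPM in microglia. It was lower on TPM (-0.63) and not called on rescaled TPM (0.09). Rassf5, which carries the Rap1 signal to LFA-1, was likewise lower on TPM (-0.87) and not called on rescaled TPM (-0.16).

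The genes whose profile over the 8 libraries was most like that of a member were found by the root mean square difference of log2(TPM + 1), each centred on its own mean, among 8252 other genes with a mean of at least 10 TPM (8253 for Itga4 and Itgb7). This is a description of these libraries, without a test. Nearest to Itgam were Dapp1 (0.145), Ptp4a3 and Ccnd1. Nearest to Itgax were Fgl2 (0.112), then at a distance Bst2 (0.357) and Il1rn (0.357). Itgal lay near Ccl8 (0.343), Cd22 (0.351) and Il1rn. Itgb2 had close neighbours in the proton pump subunits Atp6v0e (0.0748) and Atp6v1f and the ribosomal gene Rpl41, and Itgb1 in Rassf1 (0.0783), Sav1 and Ppp2r5a. Itga5 was nearest to Ppa1, Uqcc2 and Pfdn1, Itga6 to Trib1, 1810011H11Rik and Pip4k2a, and Itga4 to Cyth1, Cpne2 and Gpi1. The gene nearest to Itgb7 was Cd79b (0.273), a chain of the B cell receptor, which shared the high value in TAM replicate 2, at 55.2 TPM there, against 9.30 to 13.9 TPM in the other TAM libraries and 6.59 to 9.63 TPM in microglia. The B cell gene Ms4a1 was at most 0.473 TPM in TAMs and 0.118 TPM in microglia. The sum of the 8 B and plasma cell markers was 201 to 817 TPM in TAMs (346 TPM in replicate 2) and 377 to 406 TPM in microglia. Of the 4 tested, Igkc and Jchain were higher on TPM and on rescaled TPM, Cd79b on rescaled TPM only, and Ighm lower on TPM only. The shares of all genes higher and lower were 8.22% and 56.4% on TPM and 24.6% and 25.1% on rescaled TPM. By the p-values of the authors' deposited table, 3 of the 8 were higher and none lower, where 17.6% of all genes were higher and 16.0% lower. Their part in the level of Itgb7 was not tested.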

How the data were processed

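RNA-seq of 8 mouse libraries (5 TAM, 3 microglia) was used from 1 deposited table. The authors computed the TPM values, per the file headers. Per the submitters' processing notes the build was mm10 and FastQC and DESeq2 were used, and the deposited table also holds the authors' mean signal per gene, log2 fold change and unadjusted p-value. Aligner, quantifier and annotation are not stated there, and 3 unnamed columns were not used. Groups and replicate numbers came from the sample titles. The filter (1 TPM or more in 3 or more libraries) left 15262 genes, tested on log2(TPM + 1) with limma 3.58.1 (intensity trend, R 4.3.3) and Benjamini-Hochberg adjustment at 0.05. Fold changes on this scale understate the change of low genes. A gene under 1 TPM in every TAM library was tested only if all 3 microglia libraries reached 1 TPM. Such a gene could only be lower in TAMs on TPM. In fits without 1 library the filter was applied anew. Median-ratio rescaling kept the same genes. On simulated data of 15262 genes with 200 changed, the fit recovered 47.76%, 88.06% and 92.42% of changes of log2 1, 2 and 4, with 8 false among 160 calls. The simulation had few changed genes, in random directions, and no shift of the others. On TPM most genes were listed lower, so these rates need not hold for the calls given here. The members, lists, tests and rule for named genes (all members, from each list the 6 called genes with the smallest p plus those of the rarer direction, the 3 most alike profiles) were chosen with earlier results of these data known. Icam1, Fermt3, Itgb5, Itgad, Itgae, Ccr2, Ly6c2 and other marker genes named singly fall outside it and were chosen after their values were seen. Genes within 100 kb of a member were listed. Promoter windows came from RefSeq (6 of 9 members matched). No replicate pairing entered the fit.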

Additional observations from a re-analysis of the deposited data

Results flagged for a closer look

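Of 16 sets of TAM values examined (9 levels and 7 ratios of 5 libraries each), 1 had a library far from the others. Itgb7 in TAM replicate 2 was 16.0 TPM, against 2.21 to 4.67 TPM in the other TAM libraries, and its gap to the nearest was 0.821 of the whole range (limit 0.71). Chance flags about 1 in 20 groups.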

How the results depend on the processing

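The calls of Itgam, Itgax, Itgal and Itgb2 kept their direction under every scale, filter, pseudocount, covariate, block and left-out library tried. Under rescaled TPM, rescaled TPM with a replicate block, the authors' deposited p-values and rescaled TPM without each replicate in turn, 1 member was lower instead of 3 (range 1 to 1). The number of all genes higher was 3755, 3177 and 4763 under those first 3 settings, 894 to 1303 without each replicate on TPM and 2485 to 3943 on rescaled TPM. The number lower was 3837, 3131 and 4324, with 5581 to 9243 and 2144 to 4068 without each replicate. The lowest on TPM was without microglia replicate 2. Since the filter was applied anew, fits without a microglia replicate could not test genes under 1 TPM in every TAM library. Their numbers lower are therefore not counts over the same genes. Itgb1 turned positive at 0.0126 (rescaled TPM with replicate block), 0.0226 (rescaled TPM without TAM replicate 5) and 0.0588 (authors' deposited table), while it was -0.90 without TAM replicate 2 on TPM. The cause was not tested.

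Deviations of same-numbered TAM and microglia libraries from their group means had correlations of 0.15, 0.0139 and -0.0507, and those of other pairs -0.2458 to 0.1806. With so few libraries these values cannot show whether the numbers pair them. With the replicate block on TPM 4 members were higher and 3 lower, where 1103 of all 15262 genes were higher and 8613 lower. Itgb7 passed there (adjusted p = 0.0371, limma) and Itga5 did not (0.163). Without each library 3 to 4 members were higher on TPM and 4 to 6 on rescaled TPM. All 7 ratios kept their sign, but with 4 against 3, 5 against 2 or 3 pairs the smallest exact p is 0.0571, 0.0952 or 0.25. Low genes such as Itgb7 and Itgal in microglia have unknown counting error.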
